A study of Coturnix japonica with 144 samples.

Results

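SIK1 and RRAD are 2 of the 21561 genes in the count table, listed as ENSCJPG00005008725 and ENSCJPG00005014637. They were picked by name. Both had been called lower by the study in the BnST of sensitized birds, and RRAD had also been called against brooding duration in the hypothalamus, so those contrasts are described here without a test. The birds were 48 adult Japanese quail, and RNA from 3 punched regions of each brain was sequenced. These were the bed nucleus of the stria terminalis (written BnST), the nucleus taeniae (Tn) and the hypothalamus, which was taken whole. Of these, 24 (11 females and 13 males) had spent the night in a closed box with 2 chicks, the sensitization treatment (label I). The other 24 (16 females and 8 males) had spent it in the box without chicks (label C, control). All 48 birds were laboratory-raised, about 3 months old, kept on short days on which the gonads are quiescent, and all of them, controls included, met 2 unfamiliar chicks for 20 min just before the brain was taken. A second label sorts sensitized birds into R (17) and NR (6) and control birds into S (5) and NS (17), and 3 birds have no class. No key comes with it. The reading used is that R birds brooded after sensitization and NR birds did not, and that S and NS stand for control birds with and without spontaneous brooding, although fewer control birds carry the label S than the study counts as brooding.

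SIK1 encodes salt-inducible kinase 1, a kinase of the AMPK family. In mammals its gene is switched on by cAMP and CREB, and the kinase then phosphorylates the CRTC coactivators and keeps them out of the nucleus, so that the CREB programme that induced it is damped. RRAD encodes a small GTPase of the RGK family (RAD, REM, REM2 and GEM), which bind the beta subunits of voltage-gated calcium channels and reduce calcium current in mammalian cells. Transcripts of both genes rise quickly after stimulation in mammalian cells, as do those of FOS, a subunit of the AP-1 transcription factor that is widely read as a mark of recent neuronal activity. Each thus belongs to the early genes whose products can limit signalling through CREB or calcium.

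Both genes were read in every library. SIK1 had 172 to 1027 counts per library and RRAD 114 to 751, from totals of 9664414 to 19640873 counts. Levels are given in CPM, counts scaled to the size of each library, after TMM normalization over all 144 libraries. They are not compared between genes, since they are not per length. Few identifiers of the table are paired with a symbol, so the makeup of the punches was not tested with cell type markers. UCN3, which encodes a neuropeptide, had a median of 29.003 CPM in hypothalamic punches (13.7 to 61.6 CPM). Its median was 3.77 CPM in those of the BnST (0.247 to 32.1 CPM) and 0.228 CPM in those of the Tn, where 1 library, that of bird 26, stood at 20.7 CPM and the next at 3.20 CPM. The BnST punches thus varied widely in this gene, and the part of that in the levels of SIK1 and RRAD was not tested. Which cells or tissue gave the UCN3 reads in BnST and Tn punches was not tested either. The study called UCN3 higher in the hypothalamus of sensitized birds. Its hypothalamic median was 37.9 CPM in sensitized and 20.8 CPM in control birds, so the range there includes a treatment difference. In the BnST UCN3 ranged over 0.247 to 32.1 CPM in sensitized and 0.367 to 19.7 CPM in control birds. Bird 49 is a sensitized male whose BnST lay apart from the rest of that region on the first principal component. Bird 17, labelled male, lay near or within the range of the females for 50 genes higher in males, and below every other male. Its hypothalamic mean over these genes was 5.43 log2 CPM, where the lowest other male had 6.14 and the highest female 5.48. In the same order, the BnST gave 5.43, 6.22 and 5.44, and the Tn 5.62, 6.25 and 5.54. The label was kept, and its correctness was not tested. In punches of tissue, fewer cells that express a gene and less of its RNA per cell cannot be told apart.

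In the BnST, the region by which they were chosen, both genes were lower in sensitized birds. RRAD had a lowest, median and highest level of 16.9, 24.9 and 44.1 CPM in sensitized birds, against 18.5, 37.6 and 66.8 CPM in control birds. Its mean was 26.4 ± 7.40 CPM in sensitized and 39.04 ± 11.03 CPM in control birds (SD, n = 24 each), a log2 fold change of -0.56 (SE 0.11). SIK1 ranged over 16.1, 33.3 and 46.8 CPM in sensitized birds, against 31.9, 42.95 and 72.6 CPM in control birds. Its mean was 33.3 ± 6.04 CPM in sensitized and 43.4 ± 8.77 CPM in control birds (SD, n = 24 each), a log2 fold change of -0.38 (SE 0.08). The groups overlapped, with 22 of 24 sensitized birds below the control median for RRAD and 23 of 24 for SIK1. Below the lowest control bird lay 4 sensitized birds for RRAD and 8 for SIK1. The fit over 14384 genes called 8 of them in this contrast (0.0556%), both members among them, which the choice of the members fixes. The lowest SIK1 level was that of bird 49, and without this bird the log2 fold change of SIK1 was -0.35.

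**Figure D1:**
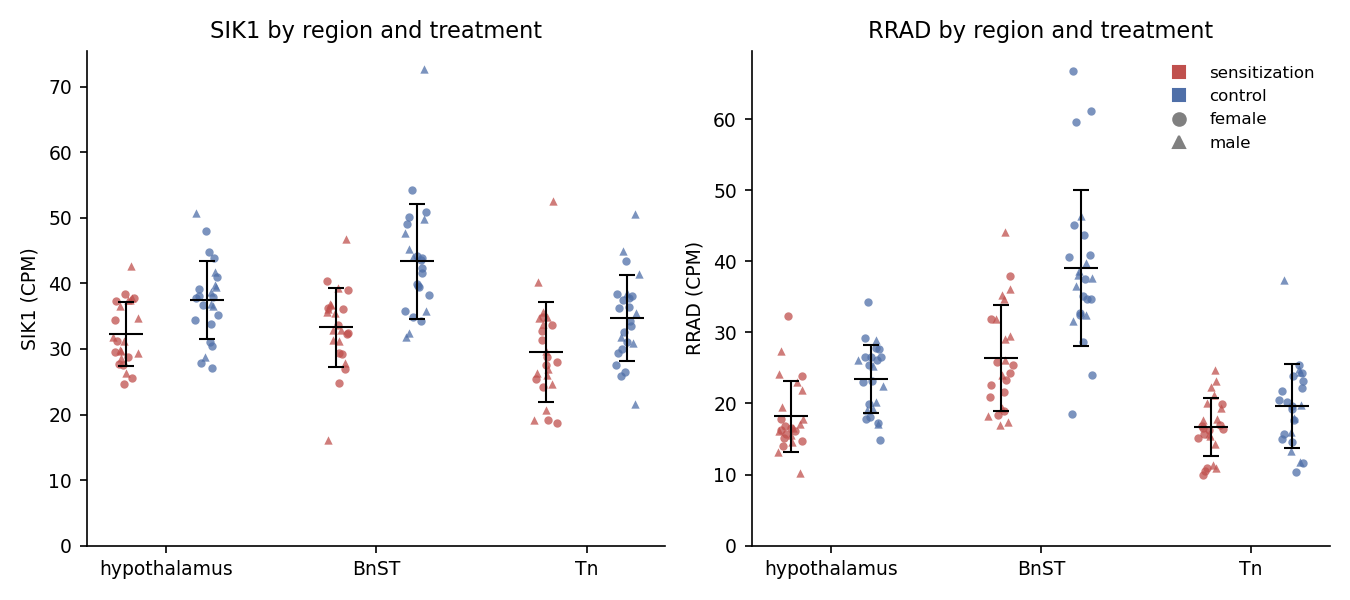
Levels of SIK1 (left panel) and RRAD (right panel) in CPM for every bird in the hypothalamus, BnST and Tn, with sensitized birds in red to the left of control birds in blue. Circles are females, triangles males, and bars the mean ± SD of 24 birds; the sensitized means lie below the control means in each region for both genes, with overlapping points.

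In the hypothalamus both genes were lower on average in sensitized birds, by less than the test over all genes could separate. RRAD had a lowest, median and highest level of 10.2, 16.5 and 32.3 CPM in sensitized birds, against 14.9, 24.2 and 34.2 CPM in control birds. Its mean was 18.2 ± 4.96 CPM in sensitized and 23.4 ± 4.84 CPM in control birds (SD, n = 24 each). The log2 fold change of RRAD was -0.36 (SE 0.09), with an adjusted p of 0.430 by edgeR's quasi-likelihood test. SIK1 ranged over 24.7, 31.2 and 42.6 CPM in sensitized birds, against 27.02, 37.9 and 50.7 CPM in control birds. Its mean was 32.3 ± 4.89 CPM in sensitized and 37.5 ± 5.98 CPM in control birds (SD, n = 24 each). The log2 fold change of SIK1 was -0.21 (SE 0.06), with an adjusted p of 0.858 by the same edgeR test. By p, RRAD stood at place 12 and SIK1 at place 23 of 14491 genes, of which 3 (0.0207%) were called. For each gene 22 of 24 sensitized birds lay below the control median. The unadjusted p was 3.56e-04 for RRAD and 0.00139 for SIK1, so neither gene passed once all genes were counted. RRAD had been called on brooding in these libraries, so its p and its place are not independent of that choice. Both genes were also chosen on treatment in the BnST of the same birds, which limits the p and place of SIK1 in the same way.

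The Tn gave the same order of means, with a smaller difference than the hypothalamus for RRAD and one of about the same size for SIK1. SIK1 ranged over 18.7, 28.4 and 52.6 CPM in sensitized birds, against 21.6, 34.8 and 50.5 CPM in control birds. RRAD ranged over 9.90, 16.5 and 24.7 CPM in sensitized birds, against 10.3, 19.7 and 37.4 CPM in control birds. The ranges overlapped over most of their width, although 19 of 24 sensitized birds for SIK1 and 18 of 24 for RRAD lay below the control median. The log2 fold change was -0.23 (SE 0.09) for SIK1 and -0.24 (SE 0.11) for RRAD, both with an adjusted p of 0.939 by edgeR's quasi-likelihood test. That test called 0 of 14242 genes in the Tn (0%), with 678 at an unadjusted p under 0.05, and DESeq2 and limma-voom also called 0. Whether the treatment difference of either gene was larger in the BnST than in the other regions was not tested, since the BnST contrast chose the genes. The Tn libraries come from the same birds, so the Tn differences are not independent of that choice.

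No label marks a batch. To look for one, the birds were divided by their number, with 1 to 20 as one run and 21 to 50 as the other, a division that the labels do not give. Most of birds 1 to 20 are males and most of birds 21 to 50 are females. In both runs males are a larger share of the sensitized than of the control birds. Run and sex thus go together, and the values by run are not adjusted for sex. In the BnST the level of SIK1 averaged 41.9 CPM in birds 1 to 20 and 36.005 CPM in birds 21 to 50, and hypothalamic levels averaged 37.6 and 33.2 CPM. Within birds 1 to 20, SIK1 in the BnST was 27.8 to 46.8 CPM in 11 sensitized birds, against 43.9 to 72.6 CPM in 8 control birds. The difference in mean log2 CPM of SIK1 in the BnST was -0.56 within birds 1 to 20 and -0.32 within birds 21 to 50. For RRAD in the BnST it was -0.44 and -0.66 in those runs. RRAD in the BnST of control birds was narrowly spread in birds 1 to 20 (37.5 ± 2.80 CPM, SD, n = 8) and widely in birds 21 to 50 (39.8 ± 13.5 CPM, SD, n = 16). In the hypothalamus the difference was -0.29 and -0.20 for SIK1 and -0.44 and -0.32 for RRAD within the 2 runs. In the Tn it was -0.22 and -0.28 for SIK1 and -0.10 and -0.33 for RRAD. Taken alone, without regard to the other genes of the table, the 4 hypothalamic differences had adjusted p of 0.0282 to 0.0328 over 8 permutation tests. Of the Tn differences, those within birds 21 to 50 passed (adjusted permutation p = 0.0297 for SIK1 and 0.0373 for RRAD), and those within birds 1 to 20 did not (0.262 and 0.628). These tests cover SIK1 and RRAD only, which were picked with results of these data known. They do not replace the test over all genes, which neither gene passed in either region. RRAD was chosen on brooding in the hypothalamus, and the treatment raised brooding. Its hypothalamic p-values are thus not independent of that choice, and the adjustment over the 8 tests includes them. Both genes were also chosen on treatment in the BnST of these same birds, so none of the 8 p-values is independent of the choice of the genes. The part of whatever the numbering stands for in the levels of SIK1 was not tested.

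Within each sex the mean of both genes was lower in sensitized birds in all 3 regions, but not all of these differences passed a test. RRAD in the BnST averaged 24.6 ± 5.77 CPM in sensitized and 39.7 ± 13.2 CPM in control females (SD, n = 11 and n = 16). In males it averaged 27.9 ± 8.48 CPM in sensitized and 37.6 ± 4.58 CPM in control birds (SD, n = 13 and n = 8). SIK1 in the BnST averaged 32.7 ± 4.90 CPM in sensitized and 42.6 ± 5.94 CPM in control females, and 33.8 ± 7.02 CPM in sensitized and 44.9 ± 13.2 CPM in control males. In the hypothalamus the difference in mean log2 CPM was -0.41 in females and -0.31 in males for RRAD, and -0.23 in either sex for SIK1. In the Tn it was -0.33 in females and -0.15 in males for RRAD, and -0.29 in females and -0.25 in males for SIK1. Of these 8 differences outside the BnST, all 4 in females passed permutation tests of the single value (adjusted p of 0.0251 to 0.0464 over the 8). In males SIK1 in the hypothalamus passed (adjusted permutation p = 0.0464), and RRAD in the hypothalamus (0.0743), SIK1 in the Tn (0.191) and RRAD in the Tn (0.461) did not. These tests do not replace the test over all genes. RRAD was chosen on brooding in the hypothalamus, and the treatment raised brooding. Its hypothalamic p-values are thus not independent of that choice, and the adjustment over the 8 includes them. Both genes were also chosen on treatment in the BnST of these same birds. With treatment centred out, levels in the BnST and in the other regions correlated with r of 0.21 to 0.44. None of the 8 p-values is thus independent of the choice of the genes. Bird 17 counts as a male by its label, although it lay below every other male in genes higher in males. The male values here include this bird, and these tests were not repeated without it. The interaction of sex with treatment was tested over all genes and called 0% of them in each region by edgeR and by DESeq2, with an unadjusted p under 0.05 for 502 hypothalamic genes, 605 genes of the BnST and 456 of the Tn. The interaction estimate was widest for RRAD in the BnST, 0.26 on the log2 scale (SE 0.23), where the difference between treatments was larger in females, and the adjusted p was 0.998 by edgeR's quasi-likelihood test.

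Neither gene passed the test of sex over all genes, which had treatment as a covariate. It called 5.18% of genes in hypothalamic libraries, 3.71% in those of the BnST and 4.07% in those of the Tn. The largest estimates were in the Tn. There RRAD averaged 19.03 ± 6.07 CPM in males and 17.4 ± 4.47 CPM in females (SD, n = 21 and n = 27), a log2 fold change of 0.20 (SE 0.11) with an adjusted p of 0.604 by edgeR. SIK1 in the Tn averaged 33.4 ± 9.20 CPM in males and 31.2 ± 5.89 CPM in females, a log2 fold change of 0.16 (SE 0.09) with an adjusted p of 0.620 by edgeR. Without bird 17 these estimates were 0.19 for RRAD and 0.17 for SIK1. In the hypothalamus and the BnST the estimates for both genes lay between -0.05 and 0.09.

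Levels differed between regions, with the largest fold changes for RRAD. Hypothalamic RRAD averaged 20.8 ± 5.53 CPM, against 32.7 ± 11.3 CPM for the BnST and 18.1 ± 5.23 CPM for the Tn (SD, n = 48 birds each). In the same birds it was higher in the BnST than in the hypothalamus in 44 of 48 and higher than in the Tn in 46 of 48. All 24 control birds had more RRAD in the BnST than in either other region. Of the 24 sensitized birds, 20 had more in the BnST than in the hypothalamus and 22 more than in the Tn. By edgeR's quasi-likelihood test over 14753 genes, RRAD was lower in the hypothalamus than in the BnST (log2 fold change -0.65, SE 0.09, adjusted p = 3.51e-11) and higher in the BnST than in the Tn (0.85, SE 0.09, adjusted p = 1.64e-16). This fit leaves out treatment, and also that the libraries of a bird are paired. With the bird as a replicate block the values were -0.63 (adjusted p = 3.98e-14 by edgeR) and 0.83 (adjusted p = 3.74e-20). Between the hypothalamus and the Tn the log2 fold change of RRAD was 0.20 (SE 0.09, adjusted p = 0.0356 by edgeR), and this call was lost with DESeq2 (adjusted p = 0.0535), with its size factors (0.0579) and with no filter (0.0676). It was kept in the paired fit with the bird as a replicate block, at 0.20 (adjusted p = 0.00543 by edgeR). These calls are to be read against 59.4% of genes called between the hypothalamus and the BnST, 68.3% between the hypothalamus and the Tn and 61.7% between the BnST and the Tn.

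SIK1 was more evenly spread, at 34.9 ± 5.999 CPM for the hypothalamus, 38.3 ± 9.03 CPM for the BnST and 32.2 ± 7.51 CPM for the Tn (SD, n = 48 birds each). The BnST stood above the Tn in 38 of 48 birds, 21 of 24 control and 17 of 24 sensitized. It stood above the hypothalamus in 35 of 48, 21 of 24 control and 14 of 24 sensitized. Treatment is not in the region fits, and whether the order of regions differed by treatment was not tested. SIK1 was higher in the BnST than in the Tn (log2 fold change 0.25, SE 0.06, adjusted p = 2.19e-04 by edgeR's quasi-likelihood test). The other pairs of regions lay at the threshold in this fit, which leaves out that the libraries of a bird are paired. SIK1 in the hypothalamus differed from the BnST by -0.14 (SE 0.06, adjusted p = 0.0541 by edgeR) and from the Tn by 0.12 (SE 0.06, adjusted p = 0.0851). In the paired fit with the bird as a replicate block, both passed, at -0.12 (adjusted p = 0.0198 by edgeR) and 0.13 (adjusted p = 0.00997). The order from BnST to hypothalamus to Tn held for the mean of both genes in sensitized and in control birds.

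Among sensitized birds, the 17 labelled R had less RRAD in the hypothalamus than the 6 labelled NR. RRAD was 10.2, 16.1 and 23.02 CPM (lowest, median and highest) in R birds, against 16.6, 22.9 and 32.3 CPM in NR birds. The mean was 15.9 ± 2.60 CPM in R and 23.6 ± 5.64 CPM in NR birds (SD), a log2 fold change of -0.56 (SE 0.13). As RRAD was chosen on brooding in this region, this is a description. NR birds were close to control birds labelled NS, which averaged 23.2 ± 4.74 CPM (SD, n = 17), so that the difference in mean log2 CPM from NS birds was -0.53 in R and 0.01 in NR birds. SIK1 in the hypothalamus had a like order, with 31.1 ± 4.44 CPM in R and 36.5 ± 4.31 CPM in NR birds (SD), against 35.7 ± 5.84 CPM in NS birds. For SIK1 the difference in mean log2 CPM between R and NR birds was -0.23 (exact permutation p = 0.0210, or 0.210 when adjusted over 10 such tests), and edgeR's adjusted p over all genes was 0.916. No gene was called between R and NR birds in the hypothalamus by edgeR (0% of 15264, with 810 at an unadjusted p under 0.05) or by DESeq2.

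The BnST and the Tn showed another layout, in which both classes of sensitized birds lay below the NS birds. Both genes were chosen on treatment in the BnST, so their place below NS birds there is not independent of that choice. RRAD was likewise chosen on brooding in the hypothalamus, so for RRAD the contrast of layouts is a description. In the BnST RRAD averaged 25.2 ± 7.11 CPM in R birds, 28.3 ± 7.87 CPM in NR birds and 38.3 ± 10.98 CPM in NS birds (SD). SIK1 in the BnST averaged 32.8 ± 6.80 CPM in R, 34.3 ± 4.01 CPM in NR and 42.01 ± 9.66 CPM in NS birds. Relative to NS birds, mean log2 CPM in the BnST was -0.59 in R and -0.43 in NR birds for RRAD, and -0.36 and -0.27 for SIK1. Between R and NR birds the log2 fold change in the BnST was -0.16 (SE 0.19) for RRAD and -0.06 (SE 0.14) for SIK1, with adjusted p of 0.962 and 0.974 by edgeR, where 0.00659% of genes were called. In the Tn, R and NR birds averaged 16.4 and 16.4 CPM of RRAD and 30.1 and 27.5 CPM of SIK1, against 19.8 and 36.04 CPM in NS birds, and the R to NR log2 fold change was -0.01 (SE 0.19) for RRAD and 0.13 (SE 0.15) for SIK1. Whether the regions differ in how R and NR birds are placed was not tested, and with 6 NR birds each mean rests on few animals.

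**Figure D2:**
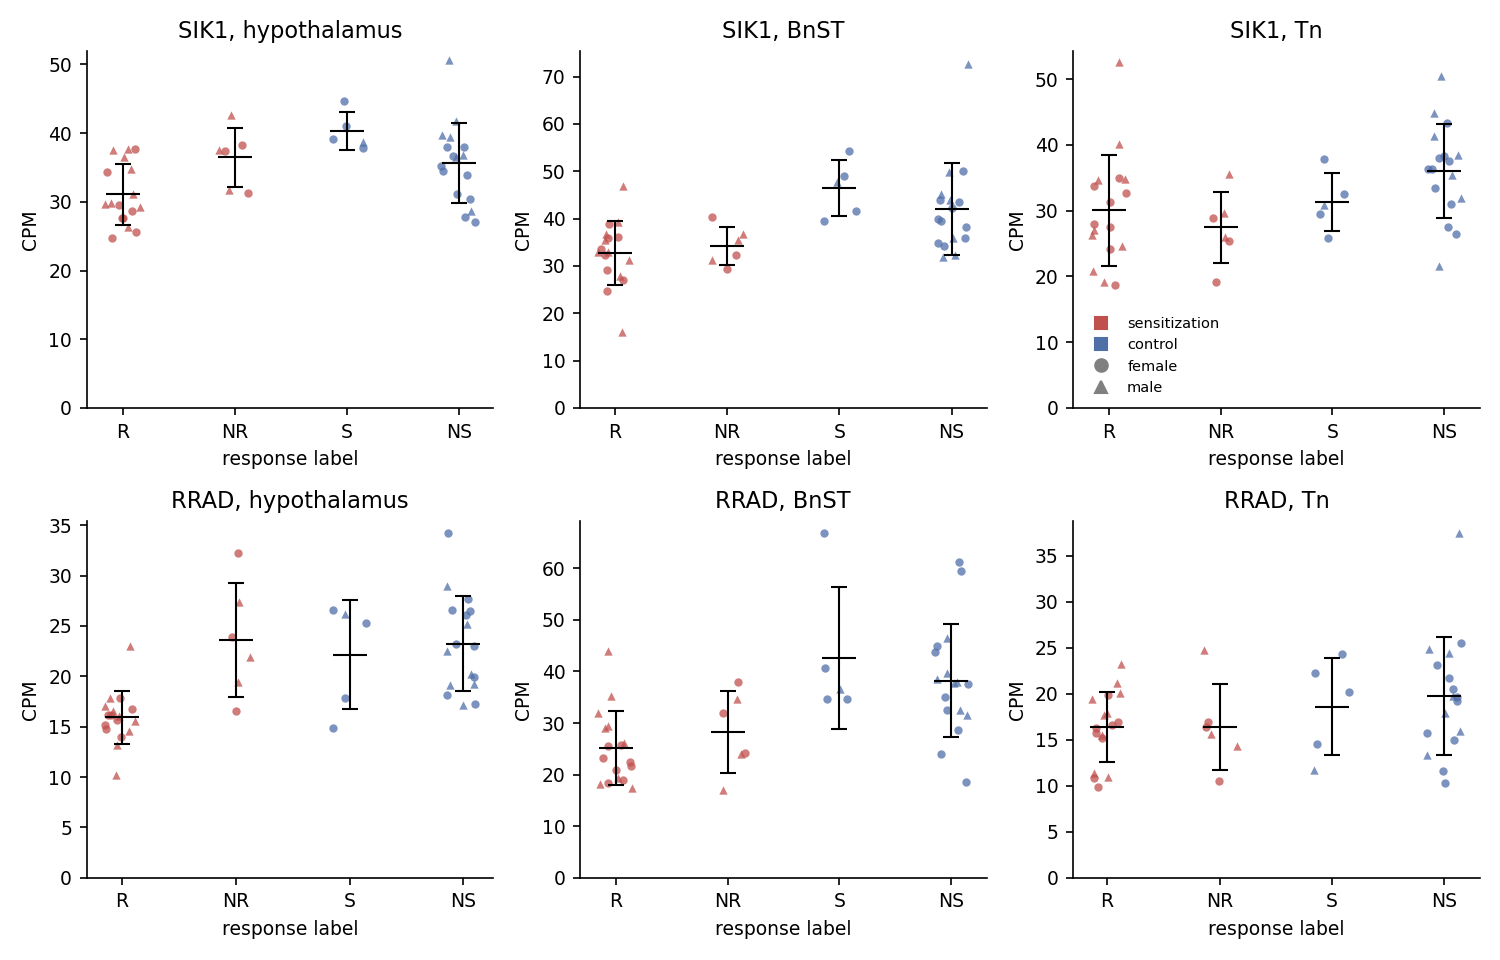
Levels of SIK1 (top row) and RRAD (bottom row) in CPM by response label in the hypothalamus, BnST and Tn, with the sensitized classes R (17 birds) and NR (6) in red and the control classes S (5) and NS (17) in blue. Circles are females, triangles males, and bars the mean ± SD. R birds are lowest in hypothalamic RRAD while NR birds lie at the control level. In the BnST both sensitized classes lie below the control classes. RRAD was chosen on brooding in the hypothalamus, and both genes on treatment in the BnST. These placements are not independent of that choice.

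Among control birds, no difference between the 5 labelled S and the 17 labelled NS passed the tests made. SIK1 in the hypothalamus of S birds was 41.0, 44.7, 38.8, 37.8 and 39.1 CPM, against 27.02, 36.6 and 50.7 CPM (lowest, median and highest) in NS birds. All 5 S birds were above the NS median, and the log2 fold change of SIK1 was 0.18 (SE 0.10, adjusted p = 0.325 by edgeR; exact permutation p = 0.0918, adjusted p = 0.459 over 10 tests). With the number run as a covariate it was 0.10, and 3 of the 5 S birds are among birds 1 to 20. Over all 10 alternatives it ranged from 0.10 to 0.22. The NS birds of run 1 to 20 are all males, so run and sex are mixed in this comparison. Among females, hypothalamic SIK1 averaged 40.7 CPM in 4 S birds and 33.2 CPM in 10 NS birds. The 1 S male had 38.8 CPM, and 7 NS males averaged 39.1 CPM. These values by sex were not tested. RRAD in the hypothalamus of S birds was 25.3, 14.9, 26.1, 17.8 and 26.6 CPM, spread over much of the NS range of 17.1 to 34.2 CPM and in 1 bird below it. RRAD in the BnST of S birds was 34.6, 40.6, 36.5, 34.7 and 66.8 CPM, against 18.5, 37.7 and 61.1 CPM (lowest, median and highest) in NS birds, and the log2 fold change was 0.16 (SE 0.20). Without the S bird at 66.8 CPM that fold change was -0.06. In the Tn the S to NS log2 fold change was -0.09 (SE 0.20) for RRAD and -0.20 (SE 0.16) for SIK1. The fit called 0% of genes between S and NS birds in each of the 3 regions by edgeR, with an unadjusted p under 0.05 for 2925 hypothalamic genes, 319 genes of the BnST and 505 of the Tn, whereas DESeq2 called 162 genes in the hypothalamus.

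Across birds of the same treatment and region, RRAD and FOS were related most closely in the hypothalamus of sensitized birds and the BnST of control birds. The study had called both genes against brooding duration in the hypothalamus, so their relation there is given as a description. In the hypothalamus of sensitized birds they had a Pearson r of 0.78 and a Spearman rho of 0.68 over 24 birds. Without the 2 birds farthest from the median of FOS, birds 17 and 44, r was 0.63, and within birds 1 to 20 and 21 to 50 it was 0.63 and 0.89. Only 5 of 14020 genes had an r with FOS at or above that of RRAD in these libraries, itself included. This place is not independent of the study's calls on brooding. Sensitized birds include R and NR birds, which differed in the mean of RRAD (15.9 and 23.6 CPM) and of FOS (87.3 and 117.6 CPM). The relation was not computed within these classes. In the BnST of control birds r was 0.77 (permutation p = 3e-05, adjusted p = 1.8e-04 over 12 relations, those of the hypothalamus included) and rho 0.75 (permutation p = 5e-05), with 0.79 without birds 32 and 38 and 0.83 and 0.79 within the number runs. There 1.42% of genes had an r at or above it. In the Tn of sensitized birds r was 0.53 (permutation p = 0.00786, adjusted p = 0.0314) and rho 0.57 (permutation p = 0.00439), with 0.62 without birds 17 and 44 and 0.32 and 0.71 within the runs. Centred on the number run, this last relation missed the threshold (r = 0.48, permutation, adjusted p = 0.0748).

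The relation of RRAD with FOS did not pass in the BnST of sensitized birds (r = 0.39, adjusted permutation p = 0.114) or in the Tn of control birds (r = 0.36, adjusted permutation p = 0.128). In the hypothalamus of control birds r was 0.36. Leaving out the 2 farthest birds gave 0.18 in both tested groups and 0.16 in the hypothalamus. In the BnST of sensitized birds the relation was 0.77 within the 11 birds of run 1 to 20 and 0.07 within the 13 of run 21 to 50. Whether r differed between sensitized and control birds in any region was not tested.

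None of the 6 relations of SIK1 with FOS passed on Pearson's r. Hypothalamic values were 0.11 in sensitized and -0.13 in control birds, those of the BnST 0.23 and 0.41, and those of the Tn 0.34 and 0.42, with adjusted permutation p of 0.114 to 0.613. In the BnST of control birds the rank correlation was 0.50 (permutation, adjusted p = 0.0425). In the hypothalamus of sensitized birds r was 0.33 within birds 1 to 20 and 0.47 within birds 21 to 50, and 0.40 when centred on the run, above the pooled 0.11. Sensitized birds 1 to 20 had more SIK1 (34.4 CPM) and less FOS (83.8 CPM) in the hypothalamus than birds 21 to 50 (30.5 and 107.4 CPM). In the hypothalamus of control birds 65.2% of genes had an r with FOS at or above that of SIK1.

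**Figure D3:**
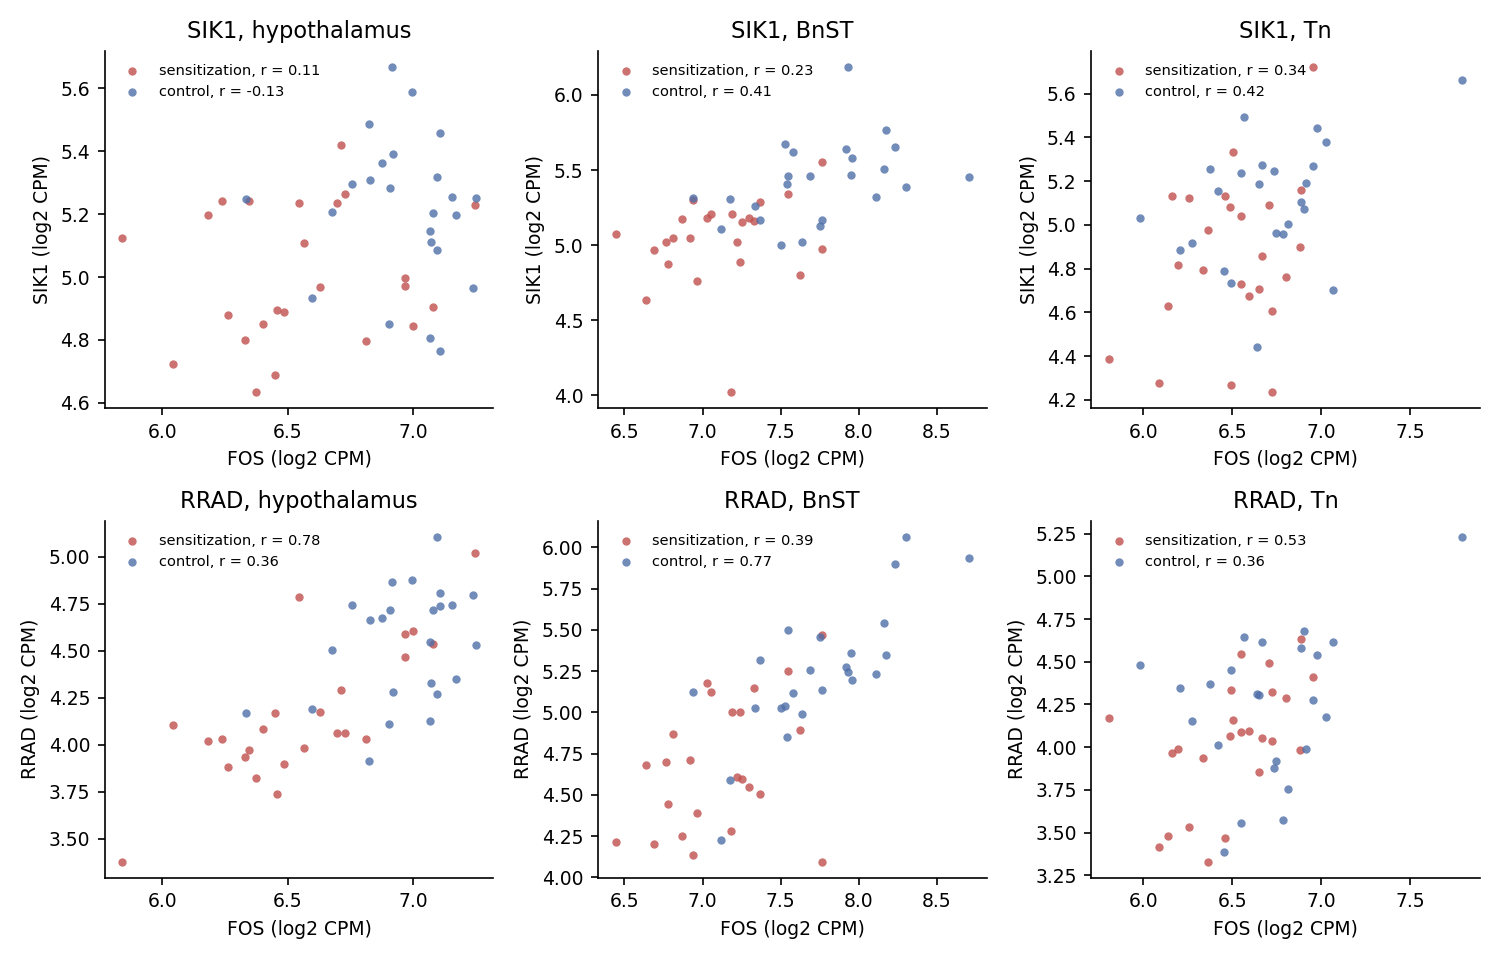
Log2 CPM of SIK1 (top row) and RRAD (bottom row) against log2 CPM of FOS in the hypothalamus, BnST and Tn, 1 point per bird, with sensitized birds in red and control birds in blue and Pearson's r in each legend. RRAD rises with FOS most closely in the hypothalamus of sensitized birds (0.78) and the BnST of control birds (0.77), and SIK1 shows no relation past the threshold on Pearson's r. The study called RRAD and FOS against brooding duration in the hypothalamus, so their relation there is a description.

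FOS itself was lower in sensitized birds, at 142.2 against 223.7 CPM in the BnST, 96.6 against 125.6 CPM in the hypothalamus and 92.0 against 107.5 CPM in the Tn. The study had called FOS lower in sensitized birds in the BnST and the hypothalamus, so FOS was itself picked out by treatment in these libraries. An estimate that shrinks with FOS in the fit is not independent of that. When the FOS level of the same library was added to the fit, a choice made once the data had been seen, the difference in RRAD between treatments shrank. It was -0.14 (SE 0.12) in the BnST, against -0.56 without FOS, and -0.09 (SE 0.09) in the hypothalamus, against -0.36. In the BnST and the hypothalamus SIK1 kept more of its difference. It was -0.21 (SE 0.10) in the BnST, against -0.38, and -0.21 (SE 0.08) in the hypothalamus, where it had been -0.21. In the Tn the estimates of both genes shrank, RRAD to -0.13 (SE 0.11) and SIK1 to -0.15 (SE 0.09), against -0.24 and -0.23. With FOS in the fit, 609 of 14384 genes were called in the BnST, 2 of 14491 in the hypothalamus and 0 of 14242 in the Tn. Neither SIK1 nor RRAD was among them. The BnST contrast chose both genes, so nothing is read from their place there. The difference between the genes in how far the estimate shrank was not tested.

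**Figure D4:**
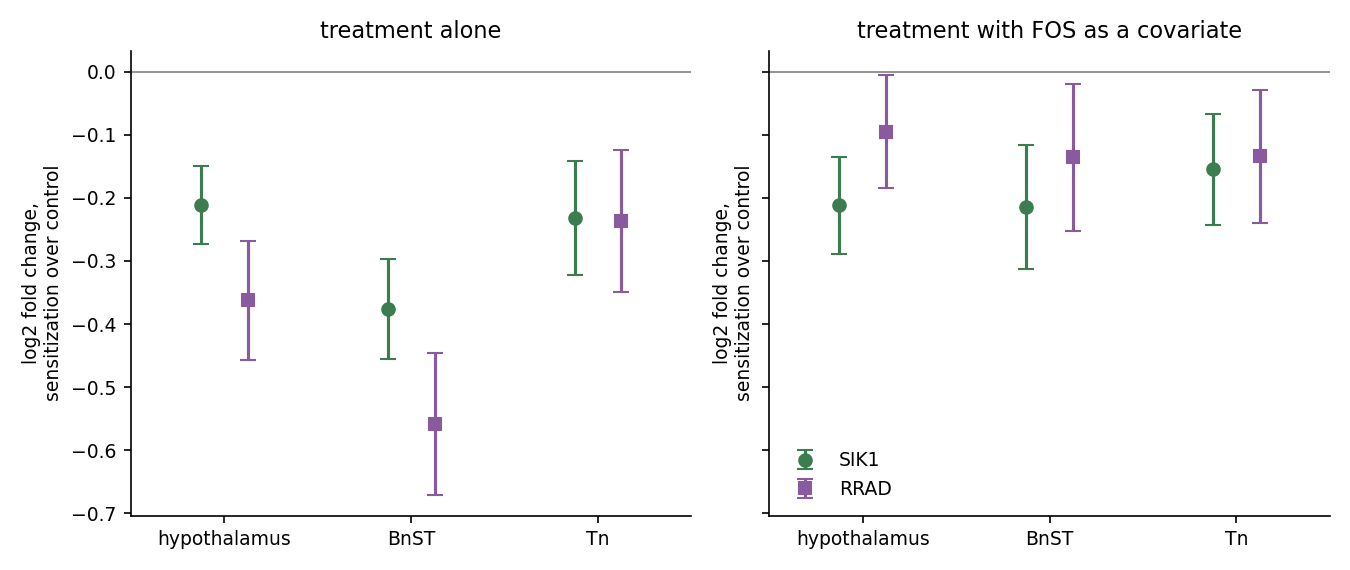
Log2 fold change of sensitization over control for SIK1 (green circles) and RRAD (purple squares) in the hypothalamus, BnST and Tn, without (left) and with (right) the FOS level of each library as a covariate. Bars are ± 1 SE; in the BnST RRAD is at -0.56 without FOS and -0.14 with it, and SIK1 in the hypothalamus is at -0.21 in both.

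SIK1 and RRAD followed each other only loosely. Over birds of the same region and treatment their r lay between 0.13 (Tn, sensitized) and 0.39 (BnST, sensitized), and none of the 6 relations passed (adjusted permutation p of 0.318 to 0.538). A bird high in SIK1 in the hypothalamus tended to be high in the BnST. With treatment centred out, r was 0.44 over 48 birds (permutation p = 0.00153, adjusted p = 0.00918 over 6 relations) and rho 0.52 (permutation p = 2e-04), with 0.53 without birds 23 and 31. It was 0.44 within birds 1 to 20 and 0.22 within birds 21 to 50, and centred on the run it was 0.27 and missed the threshold (adjusted permutation p = 0.118). RRAD in the BnST and the Tn had an r of 0.37 (permutation p = 0.0102, adjusted p = 0.0306) and a rho of 0.37 (permutation p = 0.00939), and 0.28 and 0.40 within the runs. It fell below the threshold without birds 35 and 39 (0.31) and when centred on the run (0.34). The remaining 4 relations between regions lay between 0.15 and 0.31 and did not pass.

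The genes most like each member were sought over all 144 libraries by Pearson's r of log2 CPM centred within region and treatment, among 14021 genes. The 3 libraries of a bird share the animal, so this is a description. EGR1, a zinc finger transcription factor of the early response, was nearest to RRAD (r = 0.71, with 0.80 for the hypothalamus, 0.71 for the BnST and 0.74 for the Tn). EGR4, of the same family, held place 4 (r = 0.67) and FOSB, a partner of JUN proteins, place 7 (r = 0.64). FOS itself stood at place 55 (r = 0.55). The 5 genes nearest to SIK1 held a single named gene, NR4A3, an orphan nuclear receptor induced by cAMP in mammalian cells (r = 0.60, with 0.70 for the hypothalamus, 0.69 for the BnST and 0.53 for the Tn). The nearest to SIK1 was ENSCJPG00005005135 (r = 0.64), which is not paired with a symbol. FOS stood at place 2361 for SIK1 (r = 0.26), and SIK1 and RRAD had an r of 0.25 with each other.

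Activity-induced transcription factors could be followed for 9 of the 22 on the list, EGR1, EGR4, FOS, FOSB, JUN, NPAS4, NR4A3, KLF2 and BTG2. These identifiers are named because the study called them on these libraries, so their counts are not independent of its result. Over these 9 the r with RRAD had a median of 0.56 and ran from 0.10 (KLF2) to 0.71 (EGR1). Of the 9, 6 were among the 100 genes most like RRAD, out of 14021. With SIK1 the median was 0.25 and the range -0.03 (JUN) to 0.60 (NR4A3), with 1 among the 100 most like it. The study called the 9 and both members on the same libraries, so the gap between these counts is a description. In the treatment comparison 5 of the 9 were lower in sensitized birds in the BnST (BTG2, EGR4, FOS, KLF2 and NPAS4), 1 in the hypothalamus (BTG2) and 0 in the Tn, and none was higher. Over all genes 0.0556% were called in the BnST, 0.0207% in the hypothalamus and 0% in the Tn, and since the 9 are known by name only through the study's own calls, nothing is read from the gap. Their median log2 fold change was -0.59 in the BnST, -0.36 in the hypothalamus and -0.14 in the Tn, beside a median of 0.00 over all genes tested in each region. RRAD lay near that median in the BnST (-0.56) and in the hypothalamus (-0.36), and SIK1 was closer to zero in both (-0.38 and -0.21). In the Tn both RRAD (-0.24) and SIK1 (-0.23) lay farther from zero than the median of the 9.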

How the data were processed

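The authors sequenced 144 libraries (paired-end, Illumina NovaSeq), mapped the reads with HISAT2 to Coturnix_japonica_2.0 from Ensembl, used HTSeq to count reads on genes and deposited the raw counts of 21561 genes. The submitters' processing notes also name CASAVA 1.8.2 and DESeq2. The HISAT2 and HTSeq versions and the strand setting are not given in the sources used here, so reads of overlapping antisense genes could not be told apart. In the RefSeq annotation 0 genes overlapped SIK1 and 0 overlapped RRAD. RNA was punched from frozen brain slices.

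Counts were fitted over all genes in R 4.3.3 with edgeR 4.0.16 (TMM, filterByExpr, robust quasi-likelihood F test, Benjamini-Hochberg adjustment, threshold 0.05). The filter had a minimum count of 10, asked of a number of libraries set by the design and not of every library. It also asked for 15 counts in total. SE is the absolute log2 fold change over the square root of F. DESeq2 1.42.0 and limma 3.58.1 were alternatives. Levels and correlations used TMM over all libraries and log2 CPM with a prior count of 2. Permutation tests were two-sided, exact where a group held under 10 birds and otherwise with 100000 resamples. Correlations used 100000 resamples, which allow no p below 1e-05. Correlations and plots were made in Python 3.11.15 with scipy 1.17.1 and matplotlib 3.10.9. The procedure was tested on simulated data.

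Total counts per library had a median of 12636688 (9664414 to 19640873), and precision was taken from the spread between birds. No pair of libraries was a duplicate among 1128 pairs per region. The 3 libraries of a bird come from the same animal, which pairs them between regions. Their deviations from the mean of the same region and treatment correlated with a median of 0.49, 0.46 and 0.44 over the 3 pairs of regions. The lowest values were 0.28, 0.30 and 0.12.

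The study's supplementary tables pair 21 identifiers with a name or description, 18 of them with a symbol. Lists for the SIK and CREB pathway, for RGK GTPases and calcium channels and for feedback inhibitors could be read for SIK1 and RRAD alone, and the cell type markers for none, so these are not analysed here. The named genes are the members, FOS, the 5 genes most like each member (of those without a symbol, 1 is given) and the list members that have a symbol. FOSB, at place 7, is named as a list member. The members, lists and tests were chosen with earlier results of these data known. The authors' own fold changes and p-values were not used.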

Additional observations from a re-analysis of the deposited data

Results flagged for a closer look

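RRAD in the BnST of bird 35, a control female labelled S, was 66.8 CPM, far from the other 4 birds of that label (34.6 to 40.6 CPM). The gap was 0.757 of the range of the 5 birds, above Dixon's critical value of 0.710. It was the single such value among 18 groups tested. Chance gives about 1 such value in 20 groups, so a single one is near what chance gives. FOS in the same library was 315.7 CPM, where control birds ranged over 122.8 to 417.5 CPM. In the hypothalamus bird 35 had 26.6 CPM of RRAD, where the other S birds had 14.9 to 26.1 CPM, and in the Tn it had 20.2 CPM, where they had 11.7 to 24.3 CPM.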

How the results depend on the processing

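For SIK1 and RRAD, 223 of 240 recomputed fold changes and 91 of 96 correlations were counted as unchanged, and 111 of 120 counts of genes stayed within 1.5 times. For tested results, unchanged means the same direction and side of the threshold. For contrasts given as a description it means the same direction and a shift smaller than the pooled SD of log2 CPM within groups. SIK1 in the BnST with FOS as a covariate is thus counted as unchanged, although it was no longer called. Reversed signs all belonged to small differences. R against NR in the Tn gave 0.0213 for RRAD without bird 49. S against NS, leaving out each S bird in turn, ranged from -0.0623 to 0.22 for RRAD in the BnST (negative without bird 35), from -0.21 to 0.0380 for RRAD in the Tn (positive without bird 11) and from -0.14 to 0.0392 for RRAD in the hypothalamus (positive without bird 2). The sex by treatment estimate for SIK1 was 0.0311 in the BnST without bird 49, and in the hypothalamus 0.00065 with DESeq2, 0.00065 with its size factors and 0.0101 without bird 49. The sex difference of SIK1 in the BnST was -0.0258 with the number run as a covariate. Their cause was not tested.

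Between regions, RRAD in the hypothalamus against the Tn was 0.18 and no longer called with DESeq2, its size factors or no filter. SIK1 in the hypothalamus against the BnST was -0.14 and called with DESeq2 and with its size factors. In the paired fit with the bird as a replicate block SIK1 was called at -0.12 against the BnST and 0.13 against the Tn, and the block changed no other call of SIK1 or RRAD. With FOS as a covariate, added after seeing the data, RRAD in the BnST was -0.14 and 609 genes were called there, against 8. Treatment in the hypothalamus called 8 genes with DESeq2 and 5 with limma-voom, against 3. R against NR in the BnST called 4 without a filter and 0 with sex or with number run as a covariate, against 1. S against NS in the hypothalamus called 162 with DESeq2 and 353 with sex as a covariate, against 0, and 0 to 1 leaving out each S bird. Of the correlations, SIK1 with FOS in the BnST of control birds passed as a rank correlation (0.50), and RRAD with FOS in the Tn of sensitized birds did not when centred on the run (0.48). SIK1 between hypothalamus and BnST did not when centred on the run (0.27), nor did RRAD between BnST and Tn without the 2 farthest birds (0.31) or centred on the run (0.34). With 5 S and 6 NR birds, SEs of 0.10 to 0.20 limited what class comparisons could separate.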

Other observations

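The 3 birds without a class label entered no class comparison. The sensitized male, bird 50, had 24.2 CPM of RRAD and 28.6 CPM of SIK1 in the hypothalamus, 36.1 and 36.2 CPM in the BnST, and 22.4 and 33.9 CPM in the Tn. The control females, birds 3 and 4, had 29.2 and 27.8 CPM of RRAD and 48.004 and 43.8 CPM of SIK1 in the hypothalamus, 40.8 and 32.7 CPM of RRAD and 44.2 and 50.9 CPM of SIK1 in the BnST, and 17.7 and 23.8 CPM of RRAD and 30.04 and 34.2 CPM of SIK1 in the Tn.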
